A study of Mus musculus with 9 samples.

Results

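The cyclin-dependent kinase (CDK) inhibitors, the Rb family and p53 were followed in mouse bone marrow cells transduced with 3 related constructs. The set was every probe that the platform annotation names for 10 genes: the INK4 genes Cdkn2a, Cdkn2b, Cdkn2c and Cdkn2d, the CIP/KIP genes Cdkn1a, Cdkn1b and Cdkn1c, the pocket protein genes Rb1 and Rbl1, and Trp53. It held 20 of the 45281 probes on the array and covered 9 of the 10 genes, since the annotation used here named no probe for Trp53. A probe was called detected on an array when its deposited detection p-value was under 0.01, and probes detected on at least 3 of the 9 arrays were tested. This left 13 member probes of 8 genes among 15870 probes in all.

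INK4 proteins bind CDK4 and CDK6 and keep them from D-type cyclins. CIP/KIP proteins bind cyclin-CDK complexes, mainly those of CDK2, and the Rb family holds E2F transcription factors until CDKs phosphorylate it. In blood progenitors Cdkn2a, whose locus encodes both p16Ink4a and p19Arf, and the neighbouring Cdkn2b are the classic genes that the Polycomb protein Bmi1 keeps silent, and p19Arf acts on p53 by restraining Mdm2.

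The study used c-kit-enriched bone marrow cells of the C57/Bl6 strain. They received MN1, MN1-TEL or MN1-TEL del DBD by retrovirus and were grown for 10 days in liquid medium with serum, SCF (20 ng/µl), IL-6 (10 ng/µl) and IL-3 (10 ng/µl). The coactivator MN1 works through other transcription factors, MN1-TEL joins it to the ETS-family protein TEL, and del DBD is used hereafter for the third construct, whose label names a deletion of DBD (commonly short for DNA-binding domain). The series title concerns the independence of MN1 leukemia from Bmi1. Every group carried a construct, so no untransduced or empty-vector cells entered any comparison. Each group had 3 biotin-labelled Illumina arrays. Whether the 3 were separate cultures was not given in the sources used here, so p-values measure only how these samples vary, a spread that may be technical. Precision is limited by the number of arrays.

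Of the 10 genes, 8 had a promoter entry in the RefSeq table of GRCm38.p6 (Cdkn1a, Cdkn1b, Cdkn2a, Cdkn2b, Cdkn2c, Cdkn2d, Rbl1 and Trp53), with 11 transcription starts in all. The 250 bases before the start are shown, 5′ to 3′, for the 4 genes that have both an entry and a probe called in at least 1 comparison below, because MN1-TEL carries an ETS-family partner. Cdkn1b is on the plus strand and the others on the minus strand. In capitals are matches to the ETS motif CGGAAG (ETS core below) and to the GC box GGGCGG, both searched on either strand. Other forms of the ETS site were not searched. They lie at chr4:89311033-89311282 for Cdkn2b, chr4:109666757-109667006 for the upstream start of Cdkn2c, chr6:134920151-134920400 for Cdkn1b and chr2:157204535-157204784 for Rbl1.
Cdkn2b: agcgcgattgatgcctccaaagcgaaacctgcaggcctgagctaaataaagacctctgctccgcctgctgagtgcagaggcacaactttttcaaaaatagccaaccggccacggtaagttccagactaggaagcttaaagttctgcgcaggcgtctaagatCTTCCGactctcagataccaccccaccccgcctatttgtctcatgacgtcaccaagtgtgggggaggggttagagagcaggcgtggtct
Cdkn2c: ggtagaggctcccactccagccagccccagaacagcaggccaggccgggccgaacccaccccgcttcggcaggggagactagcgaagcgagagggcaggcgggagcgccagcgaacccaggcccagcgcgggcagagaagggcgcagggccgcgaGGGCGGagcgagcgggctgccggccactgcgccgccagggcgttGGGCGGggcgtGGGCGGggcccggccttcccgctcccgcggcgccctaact
Cdkn1b: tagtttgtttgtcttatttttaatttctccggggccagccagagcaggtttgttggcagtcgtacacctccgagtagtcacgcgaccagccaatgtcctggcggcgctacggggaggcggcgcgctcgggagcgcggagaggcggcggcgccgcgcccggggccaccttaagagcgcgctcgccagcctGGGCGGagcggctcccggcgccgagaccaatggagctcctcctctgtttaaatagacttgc
Rbl1: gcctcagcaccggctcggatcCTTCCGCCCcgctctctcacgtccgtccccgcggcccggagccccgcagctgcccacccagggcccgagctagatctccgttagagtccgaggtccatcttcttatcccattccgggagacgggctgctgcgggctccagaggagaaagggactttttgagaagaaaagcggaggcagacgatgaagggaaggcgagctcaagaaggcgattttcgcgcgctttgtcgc

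The Cdkn2b window held 1 ETS core, 89 bases before the start, and no GC box. The Cdkn2c window held 3 GC boxes and no ETS core, the Cdkn1b window 1 GC box and no ETS core, and in the Rbl1 window 1 ETS core, 229 bases before the start, overlapped 1 GC box. An ETS core stood before 3 of the 11 member starts (Cdkn2b, Rbl1 and Trp53), against 13.6% of 32851 mouse promoter windows of the same length. A GC box stood before 6 of the 11, against 32.7%. A match describes the letters of the window and is not evidence of binding.

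Mean raw intensity was 632 to 689 in MN1, 927 to 973 in MN1-TEL and 857 to 897 in del DBD, and 14249 to 15273 probes were detected per array. Correlations between arrays over the tested probes, which are not independent, ran from 0.992 to 0.993 among MN1 arrays, 0.962 to 0.989 among MN1-TEL arrays and 0.990 to 0.993 among del DBD arrays, against 0.887 to 0.956 for arrays of different groups. MN1-TEL replicate 2 gave the low values of its group. Levels below are background-corrected, quantile-normalised log2 intensities, which can be compared between samples for 1 probe but not between probes. Differences are in log2 units with the standard error of the limma fit, n = 3 arrays per group, and adjusted p-values are those of limma after Benjamini-Hochberg adjustment over all 15870 probes, with calls at 0.05. Folds of dim probes are understated because 16 intensity units were added before the log. For a probe detected on no array of its dimmer group, the fold is given as a lower bound, the bright group's mean against the higher of the lowest detected signal and the probe's own value on each dim array.

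The cultures also differed in mature myeloid markers, in the order MN1, del DBD, MN1-TEL. The summed normalised intensity of 12 neutrophil marker genes was 7221 to 8399.5 in MN1, 93338 to 99714 in del DBD and 125390 to 138810 in MN1-TEL. Of these markers, 6 were not detected on any MN1 array (Ltf, Cd177, Ngp, Retnlg, Padi4 and Mmp8), and in MN1-TEL each was detected on at least 1 array. For 10 of 12 monocyte and macrophage markers with a probe the sums were 1268 to 1463, 13840 to 19655 and 40483 to 48186 in the same order. Ly86 was not detected on any array, and Ms4a7 and Fcgr1 on no MN1 array. Ccr2 went against this order, being detected in MN1 and del DBD but on no MN1-TEL array. The 10 stem and progenitor markers, Kit included, summed to 44381 to 51263 in MN1, 25308 to 30906 in del DBD and 36483 to 59158 in MN1-TEL, with Flt3 not detected on any array and Cd27, Hoxa9 and Erg not detected in MN1-TEL. All 8 mast cell and basophil markers were detected on every array and summed to 109580 to 119820, 79665 to 94129 and 94173 to 135690. The 5 of 8 B and T cell markers with a probe were not detected on any array. These are bulk cultures, so fewer cells of a type and less RNA per cell cannot be told apart, and the part of the marker differences in the results below was not tested.

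Cdkn2b encodes p15Ink4b, a CDK4 and CDK6 inhibitor known as a TGF-beta target. It lies at chr4:89306289-89311032 beside Cdkn2a (chr4:89274473-89294619). Its single probe, ILMN_1227240, read 10.21, 10.28 and 10.22 in MN1, 9.92, 9.27 and 9.71 in del DBD and 8.28, 8.64 and 7.53 in MN1-TEL. No group overlapped another, the MN1 arrays lay within a narrow band, and MN1-TEL replicate 3 was the lowest array. Raw intensities, before the correction for brighter arrays, were 865 to 1002 in MN1, 840 to 1240 in del DBD and 366 to 576 in MN1-TEL, so MN1-TEL was lowest there too while MN1 and del DBD overlapped. Cdkn2b was lower in MN1-TEL than in MN1 by 4.25-fold (difference -2.09, SE 0.27, adjusted p = 0.00023) and higher in del DBD than in MN1-TEL by 2.80-fold (difference 1.48, SE 0.27, adjusted p = 0.0042). Del DBD lay below MN1 on each array, but this difference was not called (-0.60, SE 0.27, adjusted p = 0.119). It was called under 4 alternatives (no background correction, array weights, a fit of only the 2 groups, and without MN1-TEL replicate 3), and adjusted p ranged from 0.0188 to 0.644 over all 22 alternatives.

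Cdkn2c, encoding p18Ink4c (chr4:109660876-109666756), ran the other way. Its brightest probe, ILMN_1228366, read 8.0, 8.12 and 8.17 in MN1, 8.56, 8.52 and 8.19 in del DBD and 9.13, 9.37 and 9.12 in MN1-TEL. Again no group overlapped another, with MN1-TEL highest. It was 2.16-fold higher in MN1-TEL than in MN1 (difference 1.11, SE 0.13, adjusted p = 0.00016) and 1.72-fold lower in del DBD than in MN1-TEL (-0.78, SE 0.13, adjusted p = 0.0031), and del DBD against MN1 was not called (0.33, SE 0.13, adjusted p = 0.0951), except in 3 alternatives, scaling to 1 median over all probes (0.84, adjusted p = 0.0014), array weights (0.31, adjusted p = 0.0442) and without del DBD replicate 3 (0.44, adjusted p = 0.0457). With the scaling over all probes, the median of all probes in del DBD against MN1 was 0.36. A dimmer probe, ILMN_2420939, read 6.13, 6.51 and 5.85 in MN1, 6.12, 5.96 and 6.46 in del DBD and 7.56, 6.53 and 7.14 in MN1-TEL, and was detected on 1, 2 and 3 arrays of these groups. MN1-TEL lay above both other groups at this probe too, and MN1 and del DBD overlapped. It was called in MN1-TEL against MN1 (0.91, SE 0.27, adjusted p = 0.0201) and in del DBD against MN1-TEL (-0.89, SE 0.27, adjusted p = 0.0410), calls that 5 and 11 of 20 alternatives lost, with adjusted p up to 0.0732 and 0.128. The first was lost when replicate 1 or 3 of MN1 or of MN1-TEL was left out, and the second without MN1 replicate 1, MN1-TEL replicate 1 or 3, or any 1 del DBD array. The third Cdkn2c probe was not detected on any array.

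For Cdkn2a the 3 probes were near background. One, ILMN_1227342, is annotated to the transcript that encodes p16Ink4a and the other 2 to the p19Arf transcript. Both transcripts share exons, and where each probe lies was not given in the sources used here, so the products cannot be told apart. ILMN_1226950, the one that was tested, read 6.11, 6.09 and 6.15 in MN1, 7.58, 5.90 and 6.59 in del DBD and 7.87, 6.31 and 5.43 in MN1-TEL. Replicate 1 was the highest array in both fusion groups, and all groups overlapped. This probe was detected on 1 MN1, 2 del DBD and 2 MN1-TEL arrays, and no comparison called it. MN1-TEL exceeded MN1 by 0.42 (adjusted p = 0.580), del DBD exceeded MN1 by 0.57 (adjusted p = 0.50) and del DBD exceeded MN1-TEL by 0.15 (adjusted p = 0.883), each below the SE of 0.58. ILMN_1221177 was detected only on MN1-TEL replicate 1, at 6.18 against 4.80 to 5.57 elsewhere. ILMN_1227342 was detected on MN1-TEL replicate 1 at 6.50 and del DBD replicate 1 at 6.06, and read 5.25 to 6.05 on the other arrays. ILMN_1226950 was not called under any of its 21 alternatives, and the other 2 probes were not called when every probe was tested (adjusted p 0.206 to 0.973).

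Cdkn2d, encoding p19Ink4d (chr9:21288459-21291421), read 9.18, 9.18 and 8.97 in MN1, 9.10, 9.17 and 9.25 in del DBD and 9.05, 9.28 and 9.01 in MN1-TEL. The 3 groups overlapped on all sides. Its differences, from 0.0042 to 0.06 with an SE of 0.12, were not called (adjusted p 0.729 to 0.980), although scaling arrays to 1 median over all probes, which raises the median of all probes in both comparisons with MN1 (by 0.41 and 0.36), called it higher there (0.58 and 0.55).

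**Figure D1:**
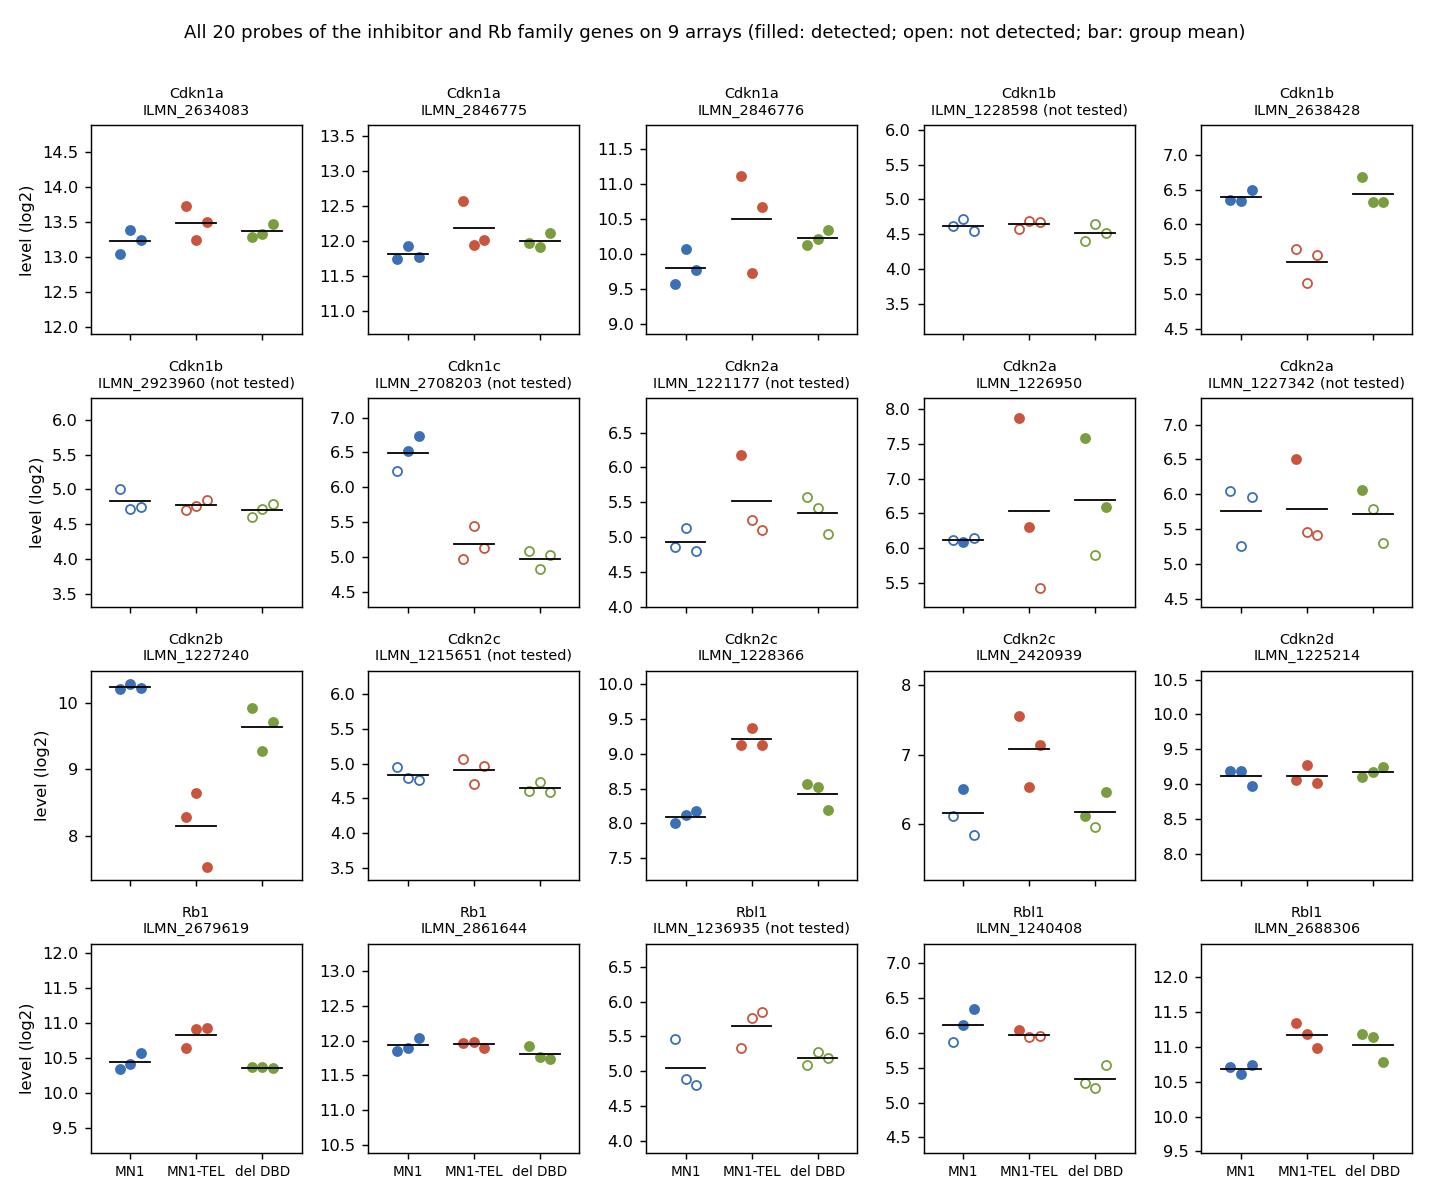
Log2 normalised intensity of each of the 20 member probes on each array, 1 panel per probe, with the 3 construct groups on the horizontal axis. Filled points are arrays on which the probe was detected, and the bar is the group mean. The group means of Cdkn2b step down from MN1 through del DBD to MN1-TEL, and those of the bright Cdkn2c probe step up in the same order. For both probes the step between MN1 and del DBD was not called.

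Among the CIP/KIP genes, Cdkn1a (p21, the best known p53-induced CDK inhibitor, chr17:29090979-29100722) was detected by 3 probes on all 9 arrays. ILMN_2846776 read 9.58, 10.07 and 9.76 in MN1, 10.13, 10.21 and 10.35 in del DBD and 11.11, 9.73 and 10.68 in MN1-TEL. MN1-TEL replicate 2 fell within the MN1 range while the other 2 MN1-TEL arrays lay above every array of the other groups, and del DBD lay above MN1 without overlap. ILMN_2846775 read 11.73, 11.93 and 11.77 in MN1, 11.98, 11.91 and 12.11 in del DBD and 12.58, 11.95 and 12.01 in MN1-TEL, with MN1-TEL above MN1 without overlap and replicate 2 again the lowest of MN1-TEL. ILMN_2634083 read 13.04, 13.39 and 13.24 in MN1, 13.29, 13.33 and 13.47 in del DBD and 13.74, 13.24 and 13.50 in MN1-TEL, all groups overlapping. In MN1-TEL against MN1 the differences were 0.70 (SE 0.30, adjusted p = 0.0850), 0.37 (SE 0.17, adjusted p = 0.103) and 0.27 (SE 0.15, adjusted p = 0.171), none called. Without MN1-TEL replicate 2 all 3 Cdkn1a probes were called higher in MN1-TEL than in MN1, at 1.09, 0.48 and 0.39 (adjusted p = 0.0010, 0.0368 and 0.0367), and ILMN_2846776 was called lower in del DBD than in MN1-TEL (-0.67, adjusted p = 0.0230). With all arrays, scaling to 1 median over all probes called the 3 probes in MN1-TEL against MN1 at 1.24, 0.76 and 0.57 (adjusted p = 0.0060, 0.0033 and 0.0065), and array weights called the first 2 (0.97 and 0.47, adjusted p = 0.0053 and 0.0312). The median of all probes was 0.41 with that scaling, and relative to it the 3 differences were 0.82, 0.35 and 0.16. Scaling to the median of the tested probes, chosen after seeing the data, gave 0.66, 0.18 and -0.01, none called (adjusted p = 0.073, 0.361 and 0.959). ILMN_2846776 was called in del DBD against MN1 with the scaling over all probes (0.88, adjusted p = 0.0390), where the median of all probes was 0.36. It was also called there with only the 2 groups in the fit (0.43, adjusted p = 0.0455). With the reported processing no Cdkn1a probe was called in the other comparisons, where differences ran from -0.28 to 0.43 (adjusted p 0.327 to 0.608).

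Cdkn1b encodes p27Kip1 (chr6:134920401-134925525), a CDK2 inhibitor of resting progenitors. Its 1 detected probe read 6.36, 6.34 and 6.49 in MN1, 6.68, 6.33 and 6.32 in del DBD and 5.65, 5.17 and 5.56 in MN1-TEL. It was detected on every MN1 and del DBD array and on no MN1-TEL array, and MN1 and del DBD overlapped. Cdkn1b was at least 1.26-fold lower in MN1-TEL than in MN1 (measured difference -0.94, SE 0.16, adjusted p = 0.0011) and at least 1.30-fold higher in del DBD than in MN1-TEL (0.98, SE 0.16, adjusted p = 0.0021). Del DBD against MN1 was not called (0.05, SE 0.16, adjusted p = 0.847), except with arrays scaled to 1 median over all probes (0.47, adjusted p = 0.0477), where the median of all probes was 0.36. Raw intensities of this probe were 169 to 170 in MN1, 163 to 185 in MN1-TEL and 218 to 242 in del DBD. Before normalisation MN1 and MN1-TEL thus overlapped, and the MN1-TEL mean was the higher (177 against 170). The other 2 Cdkn1b probes were not detected on any array (4.40 to 5.01), so the bounds hold for 1 probe.

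Cdkn1c encodes p57Kip2 (chr7:143458339-143461059), an imprinted inhibitor linked to stem cell quiescence. Its only probe did not pass the filter, as it was detected on 2 MN1 arrays and on no other. It read 6.23, 6.52 and 6.73 in MN1, 5.08, 4.82 and 5.02 in del DBD and 4.97, 5.44 and 5.12 in MN1-TEL. MN1 stood above both other groups without overlap. In the alternative that tests every probe, it was at least 1.35-fold lower in MN1-TEL (measured difference -1.32, SE 0.16, adjusted p = 0.00039) and at least 1.40-fold lower in del DBD (-1.52, SE 0.16, adjusted p = 0.00031) than in MN1. Raw intensities were 165 to 180 in MN1, 156 to 173 in MN1-TEL and 143 to 158 in del DBD, and MN1 overlapped MN1-TEL before normalisation.

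Rb1 (chr14:73192858-73325951) was measured by 2 probes that differed from each other. ILMN_2679619 read 10.35, 10.42 and 10.56 in MN1, 10.37, 10.37 and 10.35 in del DBD and 10.64, 10.91 and 10.93 in MN1-TEL. MN1-TEL lay above both other groups, which overlapped, and it was 1.30-fold higher than MN1 (0.38, SE 0.12, adjusted p = 0.0218) and del DBD 1.38-fold lower than MN1-TEL (-0.46, SE 0.12, adjusted p = 0.0187). Each of these calls was lost in 5 of 21 alternatives, with adjusted p up to 0.0819 and 0.0616. The first was lost when MN1 replicate 1, MN1 replicate 2 or MN1-TEL replicate 3 was left out, and the second without MN1-TEL replicate 3 or any 1 del DBD array. The brighter ILMN_2861644 read 11.85, 11.90 and 12.05 in MN1, 11.92, 11.76 and 11.74 in del DBD and 11.97, 11.99 and 11.89 in MN1-TEL. Its groups overlapped in each comparison, and its differences of 0.02, -0.12 and -0.14 (SE 0.10, adjusted p = 0.905, 0.407 and 0.379) were not called. Scaling to 1 median over all probes called the first at 0.41 (adjusted p = 0.0195), but the median of all probes was also 0.41 there. Scaling to the median of the tested probes, chosen after seeing the data, gave -0.17, not called (adjusted p = 0.329).

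Rbl1 encodes the pocket protein p107 (chr2:157145893-157204534). Its bright probe, ILMN_2688306, read 10.72, 10.61 and 10.73 in MN1, 11.19, 11.14 and 10.78 in del DBD and 11.35, 11.19 and 10.98 in MN1-TEL. Both fusion groups lay above MN1 on every array and overlapped each other. The probe was 1.40-fold higher in MN1-TEL than in MN1 (0.49, SE 0.14, adjusted p = 0.0198), a call that did not survive leaving out MN1 replicate 2 (adjusted p = 0.0680) or MN1-TEL replicate 1 (adjusted p = 0.0650), and it was not called in del DBD against MN1 (0.35, SE 0.14, adjusted p = 0.0965) with the reported processing. It was called there in 3 of 22 alternatives, scaling to 1 median over all probes (0.73, adjusted p = 0.0050), array weights (0.34, adjusted p = 0.0481) and without del DBD replicate 3 (0.47, adjusted p = 0.0433). With the scaling over all probes, the median of all probes was 0.36. A dim probe, ILMN_1240408, went against it. It read 5.87, 6.12 and 6.35 in MN1, 5.28, 5.21 and 5.54 in del DBD and 6.04, 5.94 and 5.96 in MN1-TEL, was detected on 2 MN1 arrays, 1 MN1-TEL array and no del DBD array, and was at least 1.08-fold lower in del DBD than in MN1 (measured difference -0.77, SE 0.14, adjusted p = 0.0038). It was also called lower in del DBD than in MN1-TEL (-0.63, SE 0.14, adjusted p = 0.0130), where the bound gives no fold above 1. That call was lost in 2 of 20 alternatives, with no background correction (-0.20, adjusted p = 0.101) and without del DBD replicate 2 (adjusted p = 0.0533). Raw intensities of ILMN_1240408 were 155 to 165 in MN1, 191 to 205 in MN1-TEL and 162 to 178 in del DBD. Before normalisation MN1 and del DBD thus overlapped, and the del DBD mean was the higher (169 against 161). The third Rbl1 probe was not detected on any array.

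**Figure D2:**
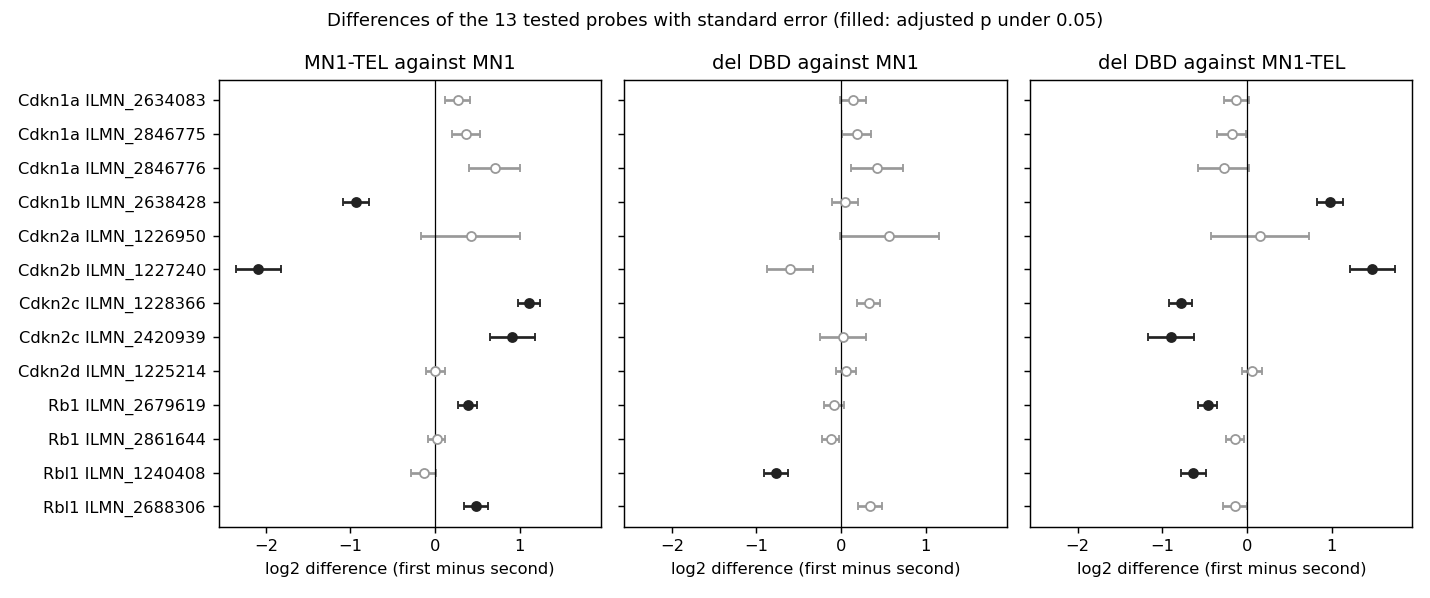
Log2 difference of the 13 tested member probes in the 3 comparisons, with bars of 1 SE, n = 3 arrays per group. The 2 comparisons that involve MN1-TEL hold the larger differences, from -2.09 to 1.48, and mirror each other in part because they share the MN1-TEL arrays.

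Counted over probes, 4 of 13 were higher and 2 lower in MN1-TEL than in MN1, or 46.2%, against 48.8% of all 15870 probes (23% higher and 25.7% lower). With arrays scaled to 1 median over all probes, 9 were higher and 2 lower. In that setting 82.3% of all called probes were higher, with the median of all probes at 0.41. Groups did not overlap at 7 of the 13, against 56.6% of all probes. In del DBD against MN1, 1 of 13 was called, the dim Rbl1 probe, or 7.69% against 31.4% of all probes (15.6% higher and 15.8% lower), and 5 did not overlap, against 55.1%. At an unadjusted limma p under 0.05, 3 were past the threshold there. In del DBD against MN1-TEL, 2 were higher and 4 lower, or 46.2% against 23.4% of all probes (11.9% higher and 11.5% lower), and 6 did not overlap, against 38%. The median difference of the 13 was 0.37, 0.06 and -0.14 in the 3 comparisons, beside -0.05, -0.03 and 0.02 over all probes, and the median size was 0.42, 0.18 and 0.28 beside 0.44, 0.31 and 0.27. Probes that passed the filter only through the group in which they are high had to differ, so these counts describe the 13 and not all 20.

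Other genes of the pathway were taken from 9 lists, each gene by its brightest tested probe. Over all 9136 genes 52.2% were called in MN1-TEL against MN1 (24.2% higher and 28% lower), 34% in del DBD against MN1 (16.7% and 17.2%) and 26% in the comparison of the fusions (13.2% and 12.9%). The median difference over genes was -0.06, -0.04 and 0.02 in the same order. Of 25 measured Polycomb genes and regulators of the Cdkn2 locus, 2 were higher and 10 lower in MN1-TEL than in MN1 (median -0.24), 1 higher and 6 lower in del DBD than in MN1 (-0.16), and 4 higher and 3 lower in del DBD than in MN1-TEL (0.17). List directions depend on the scaling, so the counts after scaling arrays to 1 median over all probes (all-probe scaling) or over the tested probes (tested-probe scaling, chosen after seeing the data) are given for both comparisons with MN1. With all-probe scaling, 82.3% of all called probes were higher in MN1-TEL against MN1 and 88.4% in del DBD against MN1. With tested-probe scaling these shares were 37.8% and 34.9%, so list counts in these settings are to be read beside them. For the Polycomb list in MN1-TEL against MN1 the counts were 9 called, all higher, and 2 higher and 12 lower. In del DBD against MN1 they were 7 higher and 1 lower, and 1 and 7. Bmi1 itself measured 8.55 ± 0.15 in MN1, 8.07 ± 0.20 in del DBD and 9.06 ± 0.37 in MN1-TEL (SD, n = 3). It was lower in del DBD than in MN1-TEL (-0.98, SE 0.19, adjusted p = 0.0064) and was not called in MN1-TEL against MN1 (0.50, SE 0.19, adjusted p = 0.0558) or in del DBD against MN1 (-0.48, SE 0.19, adjusted p = 0.0909). The first was called in 8 of 22 alternatives, among them all-probe scaling (1.07, adjusted p = 0.0021), array weights (0.66, adjusted p = 0.0070) and without MN1-TEL replicate 2 (0.72, adjusted p = 0.0030). The second was called in 3, array weights, only the 2 groups in the fit, and without MN1-TEL replicate 2 (-0.48, adjusted p = 0.0182).

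Ets1, an ETS factor known to activate Cdkn2a, was higher in MN1-TEL than in MN1 (1.41, SE 0.22, adjusted p = 0.00074) and lower in del DBD than in MN1 (-1.68, SE 0.22, adjusted p = 0.00053). It was also lower in del DBD than in MN1-TEL (-3.09, SE 0.22, adjusted p = 3.2e-05). In del DBD 1 of 3 arrays detected it. Kdm6b, a demethylase that removes the Polycomb mark, was lower in MN1-TEL than in MN1 (-0.80, SE 0.12, adjusted p = 0.00072), a call lost with all-probe scaling (-0.23, adjusted p = 0.175), and higher in del DBD than in MN1-TEL (0.86, SE 0.12, adjusted p = 0.0013). Zbtb17, encoding Miz1, which activates Cdkn2b, was lower in del DBD than in MN1 (-0.76, SE 0.15, adjusted p = 0.0044), a call lost with all-probe scaling (-0.43, adjusted p = 0.0714). Id2 was lower in del DBD than in MN1-TEL (-1.23, SE 0.19, adjusted p = 0.0019).

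Of 12 measured TGF-beta and FOXO inputs, 3 were higher and 2 lower in MN1-TEL than in MN1 (median 0.18), 1 higher in del DBD than in MN1 (0.06), and 2 higher and 4 lower in del DBD than in MN1-TEL (-0.10). MN1-TEL against MN1 gave 7 higher and 1 lower with all-probe scaling and 3 and 2 with tested-probe scaling, and del DBD against MN1 gave 5, all higher, and 1, lower. The receptors Tgfbr1 (1.38, SE 0.13, adjusted p = 2.7e-05) and Tgfbr2 (1.33, SE 0.11, adjusted p = 1.8e-05) and the signal transducer Smad2 (1.17, SE 0.12, adjusted p = 6.0e-05) were higher in MN1-TEL than in MN1. All 3 were lower in del DBD than in MN1-TEL, by -1.10, -0.94 and -0.84. Smad3, the related signal transducer, named after its values were seen, went the other way, lower in MN1-TEL than in MN1 (-1.62, SE 0.25, adjusted p = 0.00065) and higher in del DBD than in MN1-TEL (1.31, SE 0.25, adjusted p = 0.0054).

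On the side of the kinases, 2 of 12 measured G1 cyclins and CDKs were higher and 4 lower in MN1-TEL than in MN1 (median 0.05), 2 higher and 2 lower in del DBD than in MN1 (0.14), and 1 higher in del DBD than in MN1-TEL (0.15). MN1-TEL against MN1 gave 5 higher and 1 lower with all-probe scaling and 2 and 4 with tested-probe scaling, and del DBD against MN1 gave 5, all higher, and 1 and 2. Cdk6, a direct target of the INK4 proteins, measured 7.61 ± 0.09 in MN1, 6.86 ± 0.36 in del DBD and 6.33 ± 0.49 in MN1-TEL (SD, n = 3). It was lower in MN1-TEL than in MN1 (-1.27, SE 0.25, adjusted p = 0.0028), with 2 of 3 MN1-TEL arrays detecting it, and lower in del DBD than in MN1 (-0.75, SE 0.25, adjusted p = 0.0492), a call that 13 of 21 alternatives lost. Cdk4, Ccnd1 and Ccnd2 were not called in any comparison (differences -0.39 to 0.59, adjusted p 0.118 to 0.963), but all-probe scaling called Ccnd1 in MN1-TEL against MN1 (1.13, adjusted p = 0.0048) and Ccnd2 in del DBD against MN1 (0.45, adjusted p = 0.0482). Ccne1, encoding the CDK2 partner cyclin E1, was higher in MN1-TEL (1.14, SE 0.16, adjusted p = 0.00036) and in del DBD (0.75, SE 0.16, adjusted p = 0.0068) than in MN1. Cdc25a, the phosphatase that activates CDK2, was lower in both (-0.71 and -0.43, SE 0.13, adjusted p = 0.0019 and 0.0353), calls lost with all-probe scaling (-0.22 and -0.05).

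Downstream of the Rb family, 13 E2F, DP and DREAM genes gave 2 higher and 4 lower in MN1-TEL than in MN1 (median -0.14), 3 lower in del DBD than in MN1 (-0.18) and 1 lower in del DBD than in MN1-TEL (0.06). MN1-TEL against MN1 gave 6 higher and 2 lower with all-probe scaling and 1 and 6 with tested-probe scaling, and del DBD against MN1 gave 2, both higher, and 5, all lower. E2f2, an activator E2F, was higher in MN1-TEL than in MN1 (0.75, SE 0.11, adjusted p = 0.00053) and lower in del DBD than in MN1-TEL (-0.93, SE 0.11, adjusted p = 0.00049). E2f5, a repressor E2F, was lower in MN1-TEL (-1.50, SE 0.24, adjusted p = 0.00096) and in del DBD (-0.88, SE 0.24, adjusted p = 0.0235) than in MN1. E2f1 was not called (-0.06, SE 0.10, adjusted p = 0.631 in MN1-TEL against MN1), and all-probe scaling called it higher in both comparisons with MN1 (0.35 and 0.40). Rbl2, the third pocket protein gene, was not tested, its brighter probe being detected on 1 array, in MN1-TEL.

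Of 19 E2F target genes of DNA replication, 5 were lower in MN1-TEL than in MN1 (median -0.23) and 3 in del DBD than in MN1 (-0.10). In MN1-TEL against MN1 all-probe scaling called 2, both higher, and tested-probe scaling 11, all lower. For del DBD against MN1 they called 1, higher, and 9, all lower. No target was called in del DBD against MN1-TEL by limma, with 2 higher at an unadjusted p under 0.05 and a median of 0.11. Mcm6, of the replicative helicase, was lower in MN1-TEL (-0.61, SE 0.10, adjusted p = 0.00094) and in del DBD (-0.43, SE 0.10, adjusted p = 0.0107) than in MN1, calls lost with all-probe scaling (-0.31 and -0.28, adjusted p = 0.0738 and 0.114). Of 11 mitosis genes, 2 were higher in each comparison with MN1, Birc5 (0.38 and 0.30, SE 0.10) and Nusap1 (0.34 and 0.31, SE 0.09), and 1, Aurkb, was higher in del DBD than in MN1-TEL (0.39, SE 0.12, adjusted p = 0.0457), with list medians of -0.07, 0.11 and 0.07. For this list all-probe scaling called 5 in MN1-TEL against MN1, all higher, and tested-probe scaling 4, all lower, and in del DBD against MN1 they called 5, all higher, and 3, all lower. Birc5 and Nusap1 were not called with tested-probe scaling (0.21 and 0.12 in MN1-TEL, 0.08 and 0.02 in del DBD).

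Around p53, 12 measured regulators gave 1 higher and 1 lower in MN1-TEL than in MN1 (median -0.0037), 3 lower in del DBD than in MN1 (-0.04) and 1 lower in del DBD than in MN1-TEL (-0.03). MN1-TEL against MN1 gave 8, all higher, with all-probe scaling and 2, both lower, with tested-probe scaling, and del DBD against MN1 gave 4 higher and 1 lower, and 5, all lower. Mdm2, the ligase that degrades p53, was not called (0.08, -0.26 and -0.34 in the 3 comparisons, SE 0.13, adjusted p = 0.617, 0.155 and 0.0840), and 1, 2 and 2 of 22 alternatives called it, the last including the fit without MN1-TEL replicate 3 (-0.45, adjusted p = 0.0351). The checkpoint kinase gene Chek1 was lower in MN1-TEL (-0.53, SE 0.16, adjusted p = 0.0218) and del DBD (-0.49, SE 0.16, adjusted p = 0.0420) than in MN1, but at 0.032 and 0.040 with all-probe scaling. Hipk2, a p53 kinase, was lower in del DBD than in both others (-0.66 each, SE 0.12, adjusted p = 0.0028 against MN1 and 0.0037 against MN1-TEL).

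Of 17 measured p53 targets other than Cdkn1a, 6 were higher and 4 lower in MN1-TEL than in MN1 (median 0.10), 3 higher and 1 lower in del DBD than in MN1 (0.17), and 3 higher and 4 lower in del DBD than in MN1-TEL (0.10). MN1-TEL against MN1 gave 9 higher and 1 lower with all-probe scaling and 4 and 5 with tested-probe scaling, and del DBD against MN1 gave 7 and 1, and 3 and 3. The death receptor gene Fas was 3.99-fold higher in MN1-TEL (2.00, SE 0.12, adjusted p = 2.4e-06) and 3.22-fold higher in del DBD (1.69, SE 0.12, adjusted p = 1.2e-05) than in MN1. Trp53inp1 followed the same order (1.66 and 1.15, SE 0.14, adjusted p = 1.8e-05 and 0.00034), and Xpc, of nucleotide excision repair, was lower in MN1-TEL than in MN1 (-1.24, SE 0.14, adjusted p = 8.4e-05). Zmat3 was lower in del DBD than in MN1-TEL (-1.27, SE 0.17, adjusted p = 0.0010) and Gadd45a higher (0.73, SE 0.13, adjusted p = 0.0044). Among 9 measured genes of CDK inhibitor turnover, 1 was higher and 2 lower in each comparison with MN1 (medians -0.15 and -0.06), and none was called in del DBD against MN1-TEL by limma, nor at an unadjusted p under 0.05 (median 0.06). MN1-TEL against MN1 gave 4, all higher, with all-probe scaling and 1 higher and 2 lower with tested-probe scaling, and del DBD against MN1 gave 1, higher, and 2, both lower. Fbxw7, the ubiquitin ligase adaptor for cyclin E, was lower in MN1-TEL (-0.98, SE 0.17, adjusted p = 0.0014) and del DBD (-0.84, SE 0.17, adjusted p = 0.0057) than in MN1, calls lost with all-probe scaling (-0.42 and -0.37). Cul1 was lower in both as well (-0.42 and -0.48, SE 0.12, adjusted p = 0.0188 and 0.0169), but read 0.075 in MN1-TEL against MN1 with all-probe scaling. Of the genes named here in del DBD against MN1, the calls of Birc5, Chek1, Cdc25a, Nusap1, E2f5 and Cul1 were lost in 10, 10, 9, 8, 6 and 5 of 22 alternatives, among them fits without 1 array, and the Aurkb call in del DBD against MN1-TEL in 13. Fits without 1 array also lost calls in MN1-TEL against MN1. Among them were Chek1 without MN1 replicate 1 (adjusted p = 0.0721), Cul1 without MN1 replicate 2 (0.0633) and Nusap1 without MN1 replicate 3 (0.0540).

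**Figure D3:**
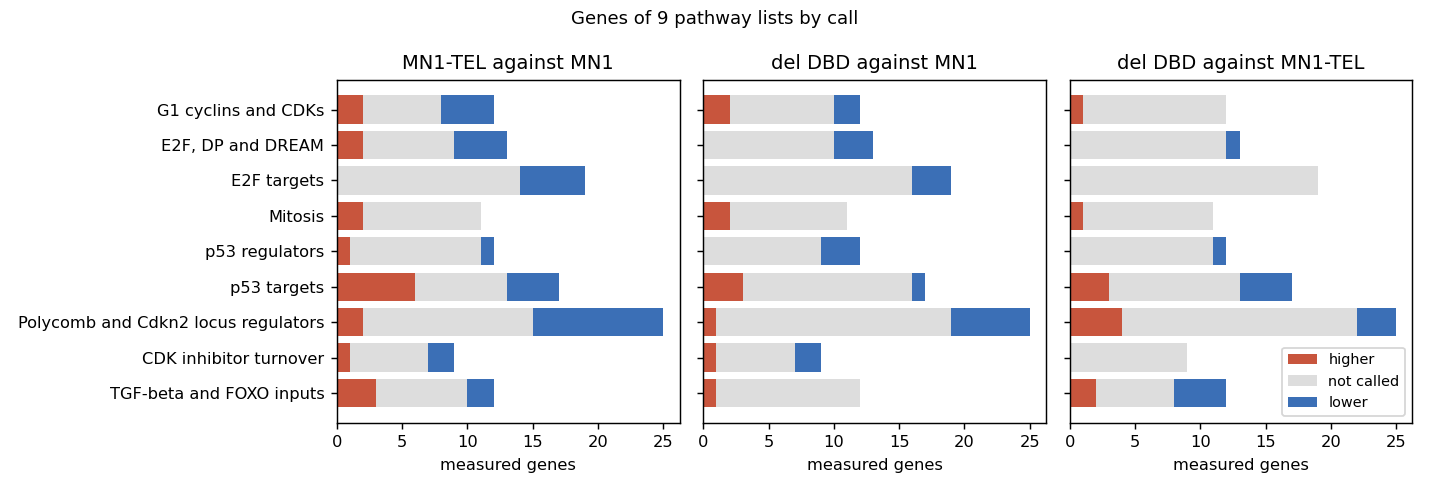
Number of measured genes called higher, called lower and not called (limma, adjusted p under 0.05) in each of the 9 pathway lists and each of the 3 comparisons. The Polycomb and Cdkn2 locus list is the largest. Of its 25 genes, 2 were higher and 10 lower in MN1-TEL than in MN1, where 52.2% of all genes were called. All-probe scaling turns this direction to 9 higher, in a setting where 82.3% of all called probes were higher.

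For each gene with a called probe, the 3 genes whose levels lay closest over the 9 arrays, each centred on its own mean, were named by root-mean-square distance in log2. For Cdkn2b they were Matk (0.196), Crygn (0.202) and Cul7 (0.212), and for Cdkn2c they were Lamtor1 (0.0885), Gclm (0.0915) and Flvcr1 (0.101). Zc4h2 (0.114), Armcx2 (0.131) and Socs5 (0.151) lay closest to Cdkn1b, and Anapc2 (0.0670), Prkag2 (0.0736) and Herc4 (0.0850) to Rbl1. For Rb1, taken by its brighter probe, which varied little, they were CYTB (0.0557), Derl2 (0.0670) and Pgap6 (0.0679). The arrays are shared by all these values, so the distances describe these samples only.

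**Figure D4:**
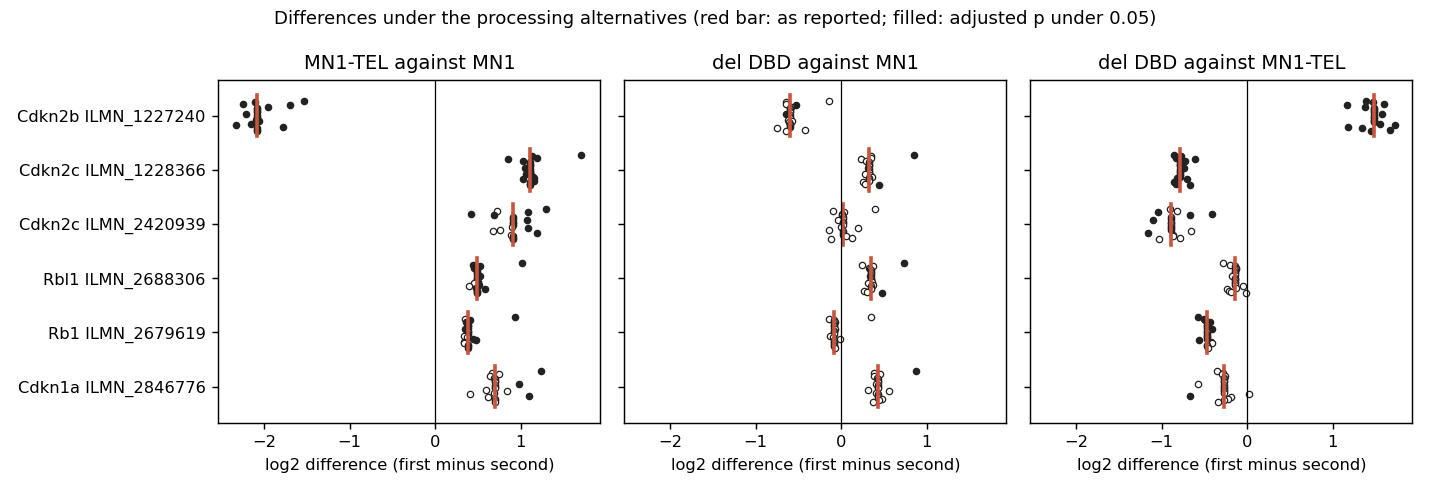
Log2 difference of 6 member probes in the 3 comparisons under the reported processing and each of the 22 alternatives. The Cdkn2b values stay between -2.33 and -1.53 in MN1-TEL against MN1 and between 1.16 and 1.73 in del DBD against MN1-TEL.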

How the data were processed

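The submitters' processing notes name GenomeStudio 2010.3. The authors deposited raw intensity values, linear and not normalised as judged from the values, for 45281 probes, and per the file headers each has a detection p-value. The authors also deposited normalised intensity values, of which 37.3% to 37.4% per array lie below 0, used as an alternative. No source used here gives further upstream steps.

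The raw table went through neqc of limma 3.58.1 in R 4.3.3 (normexp background from the detection p-values, offset 16, quantile normalisation, log2). Probes detected (p under 0.01) on at least 3 of 9 arrays, 15870, entered 1 limma model with the 3 groups as factor and 6 residual degrees of freedom. The platform annotation gave 34885 probes 1 symbol, 18 several and 10378 none. Near-identical transcripts may share a probe.

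Named genes were every member probe, up to 3 called genes of smallest adjusted p per list and comparison, 8 fixed genes (Bmi1, Rbl2, Mdm2, Ccnd1, Ccnd2, Cdk4, Cdk6, E2f1) and the 3 nearest genes per called member gene. The members, lists and tests were chosen with earlier results of these data known. The lists were G1 cyclins and CDKs, E2F, DP and DREAM, E2F targets, Mitosis, p53 regulators, p53 targets, Polycomb and Cdkn2 locus regulators, CDK inhibitor turnover, and TGF-beta and FOXO inputs. Of the marker lists, erythroid markers (6 of 8 with a probe) summed to 371 to 583 in MN1, 144 to 173 in MN1-TEL and 174 to 281 in del DBD, stroma and endothelium markers (8 of 8) to 931 to 1030, 2237 to 2441 and 2011 to 2606, with Col1a1, Col1a2, Col3a1 and Cdh5 not detected, and B and T cell markers (5 of 8) to 46.2 to 64.3. The 22 alternatives covered scaling, background, offset, filter, probe choice, array weights, prior, samples in the fit, a replicate block and leaving out each array. The steps were tested on simulated data.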

Additional observations from a re-analysis of the deposited data

How the results depend on the processing

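Of 831 member values over 3 comparisons and 22 alternatives, 776 kept their side of the threshold, 30 lost a call and 25 gained one. Of the 776, 26 changed sign, all of them values that were not called in either processing. The calls of Cdkn2b, the bright Cdkn2c probe and Cdkn1b in both comparisons with MN1-TEL held in every alternative that gave a value. Member calls in MN1-TEL against MN1 went from 6 to 11 with arrays scaled to the same median over all probes and were 4 to 9 when 1 array was left out, 9 without MN1-TEL replicate 2. In del DBD against MN1 they went from 1 to 6 with that scaling, to 2 with no background correction, no filter or detection at 0.05, to 4 with array weights, to 3 with only the 2 groups compared, and to 0 with probes detected on all 9 arrays or 1 probe per gene, alternatives that do not test the dim Rbl1 probe. They were 1 to 3 when 1 array was left out (2 without MN1-TEL replicate 3, 3 without del DBD replicate 3). In del DBD against MN1-TEL they fell from 6 to 3 with probes detected on all 9 arrays (9 probes tested), with 1 probe per gene (8 probes tested) and without del DBD replicate 2, and were 3 to 7 when 1 array was left out. Detection on all 9 arrays leaves the Cdkn1b probe and the dim Cdkn2c and Rbl1 probes untested. Taking 1 probe per gene leaves out those dim probes and the dimmer Rb1 probe.

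Over all probes, calls in MN1-TEL against MN1 were 7743, and 4995 with 1 probe per gene, where 9136 were tested. They were 6413 to 9012 when 1 array was left out, 3441 to 6555 in del DBD against MN1 (4989 with all arrays), and 2462 to 4958 in del DBD against MN1-TEL (3716), the lowest without del DBD replicate 3. Scaling to the same median over all probes moved the median of all probes to 0.41, 0.36 and -0.06 in the 3 comparisons, and the share of calls that were higher from 47.2%, 49.6% and 50.9% to 82.3%, 88.4% and 40%. Relative to that shift Cdkn2b and Cdkn2c differed by -1.95 and 1.29 in MN1-TEL against MN1. Scaling to the median of the tested probes, chosen after seeing the data, moved these shares to 37.8%, 34.9% and 50.9% and the medians to -0.17, -0.13 and 0.02. Under the scaling over all probes, E2f1 (0.35, adjusted p = 0.0430), Chek1 (0.032, adjusted p = 0.869) and Cul1 (0.075, adjusted p = 0.695) changed sign in MN1-TEL against MN1, and Chek1 (0.040, adjusted p = 0.845) in del DBD against MN1. It moved 14 of 27 list counts by over 1.5 times, and the tested-probe median 7. E2F targets in MN1-TEL against MN1 went from 5 to 2 and to 11 with these, and to 3 without any 1 of the MN1 replicates. TGF-beta and FOXO inputs there went from 5 to 8 with the scaling over all probes. Polycomb calls went from 7 to 11 in del DBD against MN1-TEL with array weights or without MN1-TEL replicate 2, and from 7 to 4 in del DBD against MN1 without MN1 replicate 3. The causes were not tested.

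Deviations of same-numbered arrays from their group means correlated at -0.22 to 0.26. With 3 arrays per group these values cannot decide whether the numbers pair the samples, and the labels do not say what a number shares. With a replicate block, member calls were 6, 1 and 5. Depth limits Cdkn2a, Cdkn1c and the dim probes of Cdkn1b, Cdkn2c and Rbl1, whose signals lie at or near background.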
